A study of Drosophila melanogaster with 4 samples.

Results

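The left arm of chromosome 3 of Drosophila melanogaster, 3L, without the 2 Mb next to the centromere, carried 1005 of the 5383 regions that the authors called enriched for H3K4me2 in late embryos (18.7%). These are all regions of the authors' combined list that lay on 3L and ended at or before position 22543557 of FlyBase release 5, so they were chosen by position alone and not by strength, width or function. A further 28 regions of 3L lay in the proximal 2 Mb and are left out. The study was a chromatin immunoprecipitation with sequencing (ChIP-seq) experiment on wild-type Oregon-R embryos (official strain name Oregon-R-modENCODE) aged 14 to 16 h, with 2 libraries precipitated with the antibody H3K4me2-Abcam and 2 input libraries made without antibody. All 4 libraries shared strain, genotype and stage, and whole embryos were used, so that every value averages over all tissues of the embryo. The deposited data were 1 list of regions for each ChIP replicate and the combined list. The inputs had no list of their own and entered only through the authors' calls. The depth is unknown, since no read number is given in the sources used here. Nothing in the labels ties the replicates to separate collections of embryos, so their spread may be only technical.

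Histone H3 dimethylated at lysine 4 marks the promoters of active or poised genes and many enhancers. In Drosophila the methyl groups at this position are added by Set1, Trithorax and Trithorax-related, and Su(var)3-3, the fly LSD1, removes mono- and dimethylation. In late embryos, nervous system, muscle, gut and epidermis are differentiating, and a promoter or enhancer marked in only some of these tissues contributes to the same list as one marked in all of them. Arm 3L is numbered from its tip towards the centromere, and its proximal end passes into the pericentric heterochromatin. No annotation or genome of release 5 was used here, so the regions are given by position and width, without genes and without their sequence.

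H3K4me2 on 3L formed many short domains separated by stretches of very unequal length. The 1005 regions of the combined list covered 3.73 Mb, or 16.6%, of the 22.5 Mb considered. Replicate 1 had 955 regions covering 15.5% and replicate 2 had 961 regions covering 15.1% (on average 15.3% ± 0.25, SD, n = 2). The replicate lists therefore differed by 6 regions in number on this arm, and the combined list was longer than either. Density was 42.4 regions per Mb in replicate 1 and 42.6 in replicate 2, and 44.6 in the combined list.

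The regions were a few kilobases wide. The median width was 3204 bp in the combined list, 3180 bp in replicate 1 and 3072 bp in replicate 2 (average of the replicates 3126 ± 76.4 bp, SD, n = 2). In the combined list the middle 50% of widths lay between 2431 and 4448 bp, the narrowest region had 1008 bp, and 10% of regions exceeded 6273 bp. The replicate lists had narrower limits, with the narrowest region at 1302 bp and 1305 bp and the widest at 12851 bp and 12447 bp. Broad domains of more than 8 kb were few, 48 in the combined list, 41 in replicate 1 and 37 in replicate 2, but held 12.5% of the covered bases in the combined list, 11.1% in replicate 1 and 10.1% in replicate 2.

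The widest region, 627770 to 644359 near the distal end, spanned 16590 bp and had a modest score of 1.28, rank 603 among the 1005. The score is the authors' own value of enrichment per region, on a scale that is not stated. Replicate 1 divided this domain into 3 regions scoring 0.63 to 1.53 and replicate 2 into 2 regions scoring 1.29 and 1.40. The pieces together measured 14770 bp in replicate 1 and 14804 bp in replicate 2. Neighbouring regions of a replicate list could lie 0 bp apart, so a division is not by itself a break in the mark. The next in width, 21015887 to 21030091 (14205 bp, score 2.19), and the eighth, 1643126 to 1654525 (11400 bp, score 2.34), were likewise divided into 2 regions in each replicate. The other 7 of the 10 widest were single regions in both replicates. The broadest of these single domains, 16572088 to 16585695, measured 13608 bp in the combined list, 12851 bp in replicate 1 and 12447 bp in replicate 2. Its scores were 2.93 and 2.54 in the replicates (average 2.74 ± 0.27, SD, n = 2). The domain from 19898126 to 19910070 was nearly the same in both, at 11745 bp in replicate 1 and 11779 bp in replicate 2. The domain from 827890 to 839830 measured 11804 bp and 11684 bp in the replicates, and the one from 13989400 to 14001313 measured 11541 bp and 11568 bp. The last of these scored 1.96, the lowest of the 7 undivided domains. The remaining 3 undivided domains, at 18888693 to 18900238, 3217227 to 3228091 and 5755242 to 5766077, were 11546, 10865 and 10836 bp wide. Their scores were 2.36, 2.51 and 2.77.

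The 10 highest scores belonged to regions 3662 to 10836 bp wide. The highest score on the arm was 3.01, at 7230661 to 7238333 (7673 bp), with 3.28 and 2.78 in the replicates (average 3.03 ± 0.36, SD, n = 2). The stretch before this region was empty for 79653 bp, and the next region followed after 2120 bp. The second, 20800427 to 20804851 (4425 bp), had scores of 3.22 and 2.85 in the replicates, and no region of the arm scored higher in replicate 2. The third, 1863186 to 1867865 (4680 bp), scored 3.24 and 2.78 in the replicates and lay 97 bp from the preceding region. The fourth, 5357380 to 5362020 (4641 bp, 3.04 and 2.79), stood directly before an empty stretch of 190743 bp. The fifth to eighth were 359502 to 363163, 2369984 to 2375492, 1773288 to 1779001 and 209426 to 214488, with combined scores from 2.87 down to 2.79. The region 5755242 to 5766077, ninth by score, is the only one of the 10 highest that was also among the 10 widest. The tenth, 21823682 to 21828115, scored 2.75. None of the 10 was divided in a replicate.

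Scores on 3L had a weak and a strong maximum with a dip between them. In the combined list 155 regions scored between 0.25 and 0.5, 51 scored between 1 and 1.25, and 123 scored between 2 and 2.25. In replicate 1, 109 regions scored between 0.5 and 0.75, 60 between 1 and 1.25 and 125 between 2.25 and 2.5. In replicate 2 the same lower intervals held 124 and 68 regions, and 134 scored between 1.75 and 2. The dip in replicate 1 was broad, with 60 to 64 regions in each interval from 0.75 to 1.5, close to the 66 between 0.25 and 0.5. The 340 regions under a score of 1 had a median width of 2196 bp and the 665 regions at or above it 3857 bp. The regions at or above 1 held 78.8% of the covered bases. The limit of 1 was set after the scores were seen and serves as a description. Across regions, width and score had a Spearman rho of 0.69 in the combined list (n = 1005), 0.70 in replicate 1 (n = 955) and 0.70 in replicate 2 (n = 961). Neighbouring regions share libraries and sequence context, so no p-value is attached.

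**Figure D1:**
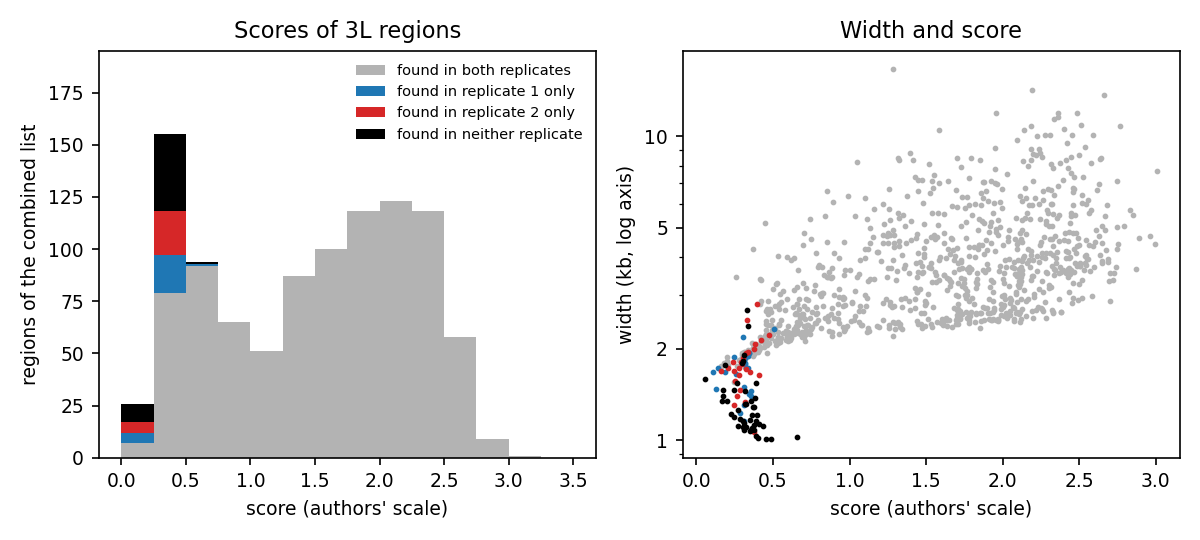
Scores and widths of the 1005 regions of 3L in the combined list. Left, number of regions per score interval of 0.25 on the authors' scale, coloured by whether a replicate list has an overlapping region. Right, width in kb on a log axis against score, same colours. Regions missing from either replicate all sit at scores of at most 0.66.

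Recurrence between replicates was high on 3L and differed with the score. Of the 1005 regions, 908 overlapped regions of both replicates (90.3%, Wilson 95% interval 88.4 to 92.0, counting error only), against 88.5% over all 5383 regions of the series. An overlap of 1 bp was enough to count. The combined list comes from the same ChIP libraries as the replicate lists, so recurrence in them is not an independent check, least of all for strong regions. Replicate 1 alone held a partner for 24 regions and replicate 2 alone for 26. The other 47 regions (4.68%, interval 3.53 to 6.16) overlapped neither replicate, against 5.44% over the whole series. On the rest of the series the share in both replicates was 88.1% (3858 of 4378, interval 87.1 to 89.0). The intervals treat regions of a list as independent, so they cannot decide whether 3L differs from the rest.

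Every region with a score of 1 or more was found in both replicates, 665 of 665 (Wilson 95% interval 99.4 to 100), against 99.6% over the whole series. On the rest of the series it was 2919 of 2934 (99.5%, interval 99.2 to 99.7). Between 0.5 and 0.75 the share was 97.9% (92 of 94), between 0.25 and 0.5 it was 51.0% (79 of 155), and below 0.25 it was 26.9% (7 of 26). The 47 regions found in neither replicate had a median width of 1212 bp, and 28 of them were narrower than 1305 bp, a width below which replicate 2 lists no region. The strongest of these 47 scored 0.66 and lay at 19136957 to 19137985 (1029 bp). The following 4 scored 0.49, 0.46, 0.43 and 0.41, at 312509 to 313516, 7130425 to 7131432, 9170724 to 9171840 and 5875299 to 5876431. All 5 were between 1008 and 1133 bp wide.

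Between the replicate lists themselves, 928 of the 955 regions of replicate 1 (97.2%, interval 95.9 to 98.0) and 934 of the 961 regions of replicate 2 (97.2%, interval 95.9 to 98.1) overlapped a region of the other list. The lists shared 3.30 Mb, a base-pair Jaccard index of 0.92. The 27 regions of replicate 1 without a partner scored at most 0.73 and the 27 of replicate 2 at most 0.63. Over 889 regions matched one to one, scores had a Spearman rho of 0.98 and a Pearson r of 0.98, and widths a rho of 0.97. Starts differed by a median of 61 bp and ends by 58 bp, and for 738 of the 889 neither border moved by more than 250 bp. These correlations are across regions of 2 lists and carry no p-value.

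Of these 889, 814 (91.6%) had the higher score in replicate 1, and the difference, replicate 1 minus replicate 2, had a median of 0.26 (SD over regions 0.17). The difference was not constant. With the regions divided into 3 groups of 296 or 297 by their mean score, its median was 0.10 in the lowest group, 0.30 in the middle group and 0.34 in the highest. The 5 regions farthest from the overall median difference of 0.26 included 4 weak regions that scored higher in replicate 2. The median in the lowest group was only 0.10, so measuring from 0.26 favoured such regions. Among these, the region at 4202649 to 4204604 scored 0.53 in replicate 1 and 0.79 in replicate 2, and the region at 17567513 to 17569649 scored 0.65 and 0.89. The regions at 8142792 to 8145153 and 9743282 to 9744826 scored 0.59 and 0.35 in replicate 1 and 0.82 and 0.56 in replicate 2. The fifth was a strong region at 19709470 to 19712282, with 2.70 in replicate 1 and 1.93 in replicate 2.

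**Figure D2:**
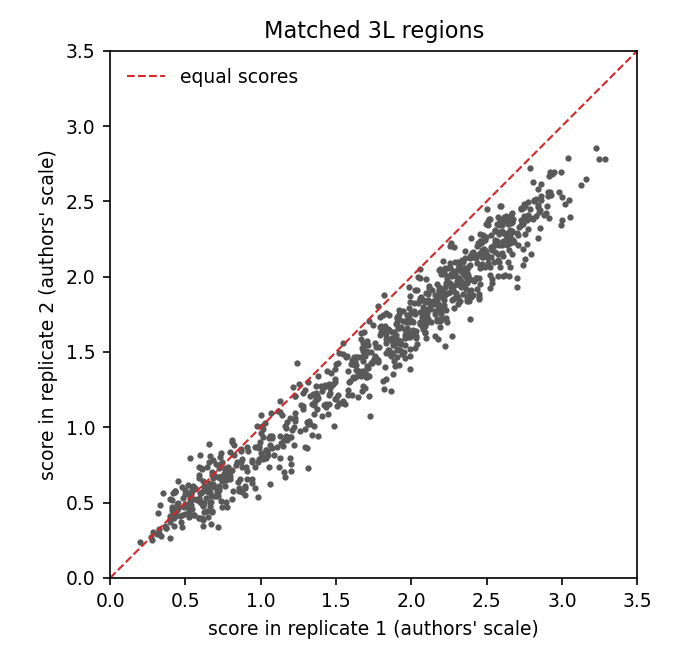
Score in replicate 2 against score in replicate 1 for the 889 regions of 3L matched one to one, on the authors' scale, with the line of equal scores. Most points lie below the line by a growing distance as scores rise, from a median of 0.10 among the 296 lowest to 0.34 among the 297 highest.

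Most regions were single units in every list. Of the 1005 regions, 871 (86.7%) corresponded to exactly 1 region in each replicate. A further 37 were divided in at least 1 replicate, 16 of them in both. The divided regions had a median width of 6072 bp, against 3360 bp for those that were single in both.

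Regions lay close together, and a minority of long stretches held most of the unmarked sequence. The median gap between neighbours was 6881.5 bp in the combined list, 7202.5 bp in replicate 1 and 7147.5 bp in replicate 2 (average of the replicates 7175 ± 38.9 bp, SD, n = 2). The mean gap was far longer, 18530 bp in the combined list, 19747 bp in replicate 1 and 19706 bp in replicate 2. In the combined list 130 gaps were under 1 kb and together held 0.24% of the sequence. By contrast, 106 stretches of at least 50 kb, counting those at either end, held 9.79 Mb or 43.4% of the sequence. Replicate 1 had 111 such stretches with 45.8% of the sequence and replicate 2 had 112 with 46.0%. Stretches of at least 100 kb numbered 36 in the combined list, 37 in replicate 1 and 36 in replicate 2, and made up 22.4%, 23.3% and 22.8% of the sequence.

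**Figure D3:**
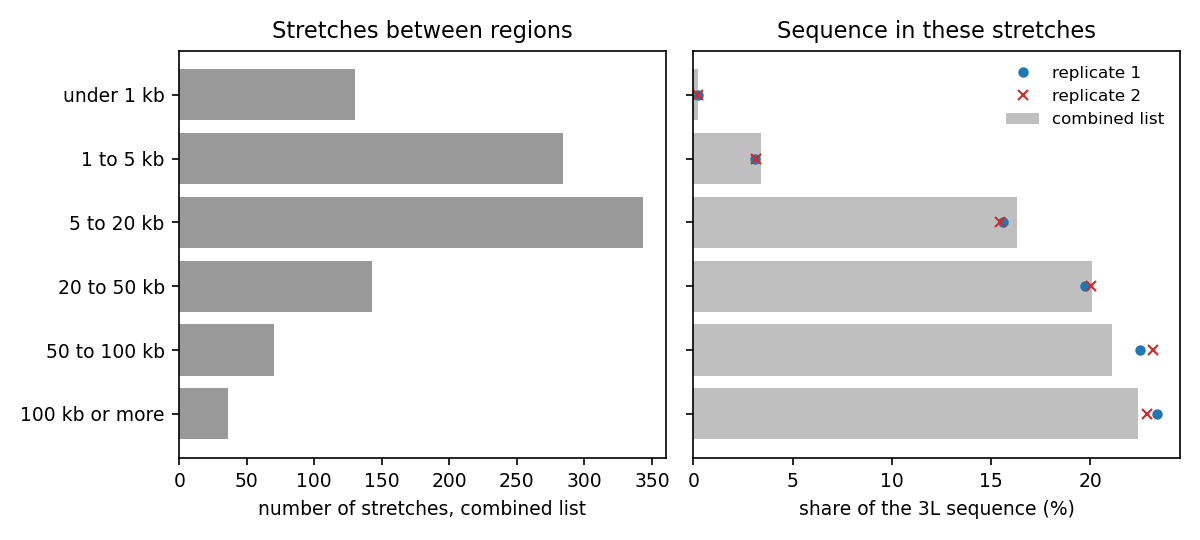
Stretches without a region on 3L by length class, both ends of the sequence included. Left, number of stretches in the combined list. Right, share of the 22.5 Mb in each class for the combined list (bars) and the replicates (points). The 36 stretches of 100 kb or more hold 22.4% of the sequence and the 130 shortest hold 0.24%.

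The longest empty stretch of the combined list ran for 219.5 kb, from 18394014 to 18613548, and measured 221.2 kb in replicate 1 and 221.3 kb in replicate 2. The second, 210.6 kb from 18179578 to 18390190, lay directly before it. Together they made a block of 434.0 kb with only 2 regions, 18390191 to 18392318 (score 0.71, found in both replicates) and 18392822 to 18394013 (score 0.25, found in neither), and 0.765% of its bases covered. Each replicate listed 1 region within this block. The third stretch, 208.9 kb from 9969008 to 10177861, was bordered by weak regions of 0.32 and 0.40 and measured 221.8 kb in replicate 1, where it was the longest, and 220.6 kb in replicate 2. The fourth, 13660325 to 13858457 (198.1 kb), had weak borders too, at 0.74 and 0.68.

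Of the other long stretches, the fifth and the eighth stood between strong regions. The fifth, 190.7 kb from 5362021 to 5552763, was bordered by regions of 2.89 and 2.47. The eighth, 161.8 kb from 10688033 to 10849832, was bordered by regions of 2.15 and 1.89. The sixth, at 11289945 to 11480021, was 190.1 kb long, with borders of 1.65 and 1.41. The seventh, at 14796163 to 14961652, was 165.5 kb long, with borders of 1.96 and 1.08. The tenth, at 12844910 to 13000577, was 155.7 kb long, with borders of 2.46 and 1.30. The ninth, 9171841 to 9329005, was 157.2 kb long in the combined list and belonged to stretches of 200.6 kb in both replicates. Its borders were weak, at 0.43 and 0.35, and neither replicate listed the region at either border. No region of either replicate lay wholly within any of the 106 stretches of at least 50 kb. The distal tip was also empty up to the first region at 128566 to 134861 (score 1.77), which began at 128579 in replicate 1 and at 128599 in replicate 2. How much of each stretch can be aligned to is not known, so an empty stretch is one without a called region.

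At the other extreme were chains, defined as runs of at least 5 consecutive regions with every gap at most 5 kb. The combined list had 24 chains with 152 regions (15.1%), which occupied 0.790 Mb or 3.51% of the sequence and held 15.0% of the covered bases. Chains were 21.9 to 55.4 kb long, and regions covered 52.4% to 89.4% of each. Replicate 1 had 17 chains with 106 regions and replicate 2 had 19 chains with 115 regions. Of the 24 chains, 16 overlapped a chain in both replicates and 5 a chain in neither. At the other end of the scale, 376 regions of the combined list had no neighbour within 5 kb.

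The chain with most regions, 310058 to 351870, had 10 in 41.8 kb with scores from 0.11 to 2.10. Only 6 of these 10 were found in both replicates, and replicate 1 listed 8 regions there and replicate 2 listed 7. The chain from 4277075 to 4323157 had 9 regions in 46.1 kb, 8 of them found in both replicates. The chain from 7314877 to 7366032 had 9 regions in 51.2 kb, all of them found in both replicates, and each replicate listed 9 there. Its scores ran from 1.24 to 2.75, so that it held no region under a score of 1. The chain from 9685612 to 9725083 had 8 regions in 39.5 kb, with a lowest score of 1.53 and a median gap of 664 bp. The longest chain in sequence, 12475826 to 12531248, had 8 regions in 55.4 kb with scores from 0.54 to 2.67, and all 8 recurred. A further chain of 8 regions, 15486791 to 15518028, ranked behind these by position alone, and 5 of its regions were found in both replicates. The densest by coverage was a chain of 6 regions from 3034362 to 3062368, with 89.4% of its 28.0 kb covered.

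**Figure D4:**
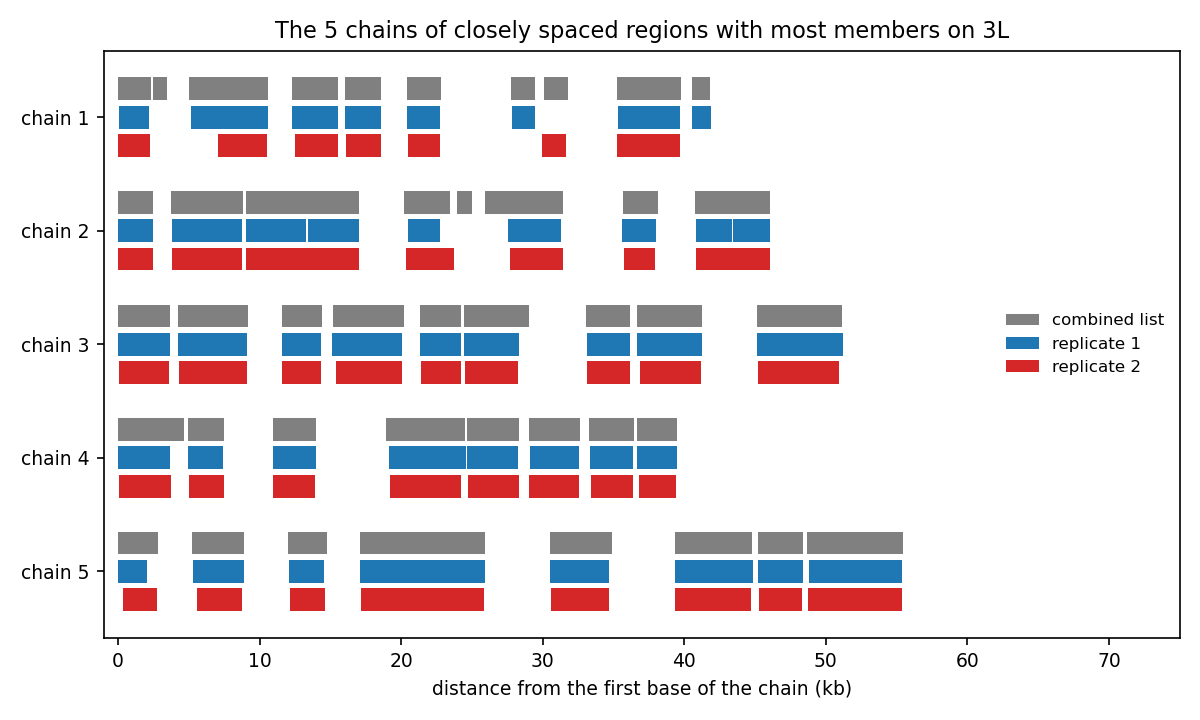
The 5 chains with most regions, drawn to scale from the first base of each, for the combined list and the replicates. Chains 1 to 5 are those starting at 310058, 4277075, 7314877, 9685612 and 12475826. Chain 3 has 9 regions in each of the 3 lists, whereas chain 1 has 10 in the combined list, 8 in replicate 1 and 7 in replicate 2.

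Density varied along the arm on the scale of 500 kb. Over 45 such windows from the tip, the covered share in the combined list had a median of 15.9% and ranged from 3.55% to 31.7%, with 5 to 37 regions per window. The replicates ranked the windows nearly alike (Spearman rho 0.99, n = 45 windows of the same 2 libraries) and differed by at most 1.61 percentage points in any window. The most densely covered window, 3000001 to 3500000, had 29.3% of its bases within regions in replicate 1 and 29.3% in replicate 2, with 37 regions in the combined list. It was followed by 1500001 to 2000000, with 27.7% in replicate 1 and 28.4% in replicate 2, and by 19500001 to 20000000, with 26.7% and 26.0%.

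The 3 emptiest windows were 10000001 to 10500000, with 3.53% in replicate 1 and 3.20% in replicate 2, 18000001 to 18500000, with 4.08% and 4.63%, and 4500001 to 5000000, with 5.39% and 5.62%. The SD between replicates was at most 0.49 percentage points in these 6 windows, which were chosen as the extremes of coverage. The first of these empty windows held 5 regions and the second 8, with median scores of 1.38 and 0.68. In the combined list coverage exceeded 20% in 16 windows and was below 10% in 7. In replicate 1 it exceeded 20% in 10 windows and was below 10% in 8, and in replicate 2 the numbers were 8 and 8. Across windows, the number of regions had a rho of 0.96 with the covered share and of -0.07 with the median width (n = 45). The covered share is made up of the number and widths of regions, so the first of these values is largely built in. The rho of the covered share with window order from the tip was -0.13, and that between neighbouring windows was 0.09 (n = 44 pairs).

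**Figure D5:**
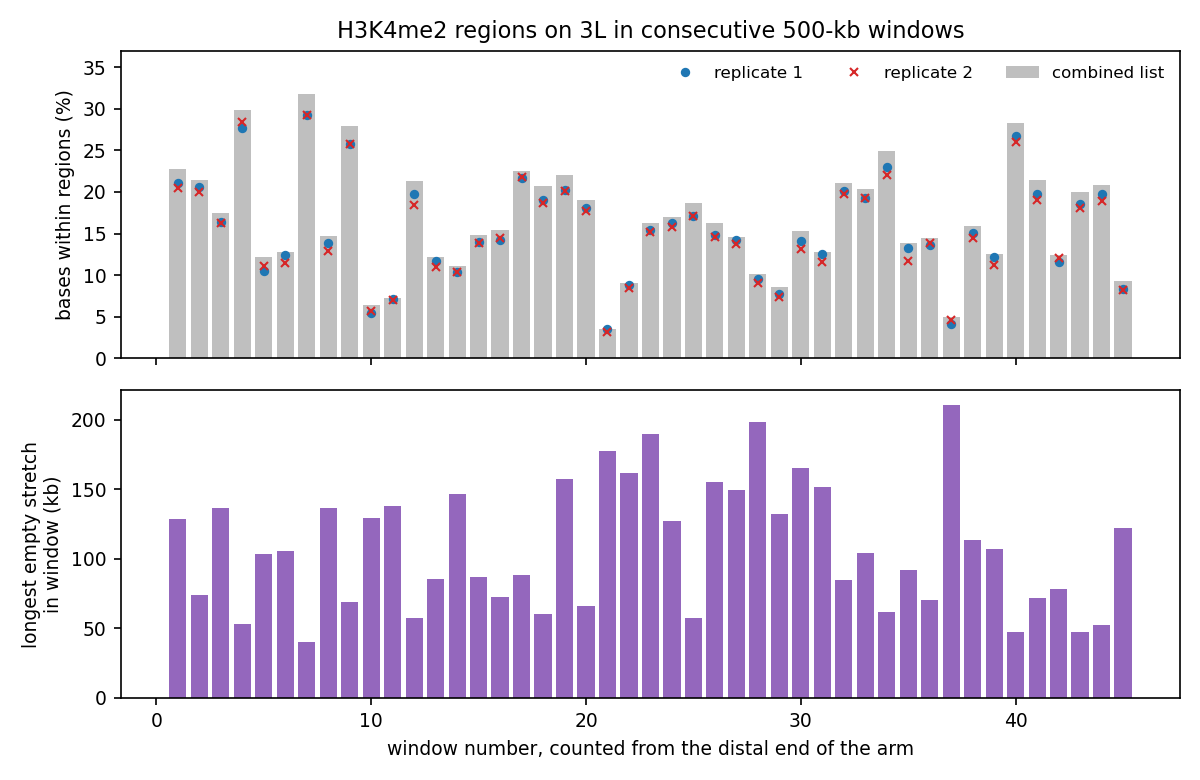
Covered share of consecutive 500-kb windows of 3L, numbered from the tip, in the combined list (bars) and the replicates (points), above the longest empty stretch within each window in the combined list. Window 7 is the most densely covered at 31.7% and window 21 the emptiest at 3.55%, and replicates differ by at most 1.61 percentage points.

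Isolated regions had lower median scores than closely spaced ones. Isolated regions, with at least 20 kb free on both sides, numbered 91 in replicate 1 and 99 in replicate 2, and closely spaced regions, with a neighbour within 5 kb, numbered 591 and 590. The median score of isolated regions was 1.42 in replicate 1 and 1.21 in replicate 2, against 1.99 and 1.70 for closely spaced regions. The difference, isolated minus closely spaced, averaged -0.53 ± 0.061 (SD, n = 2 lists) and had the same sign in both. With each list first cut to its upper 50% of scores it was -0.07. Gaps were then taken anew, so both groups differed from those above. Median widths were 3281 and 3214 bp for isolated regions and 3295 and 3212.5 bp for closely spaced ones in the replicates, and 3434 against 3280 bp in the combined list. In the combined list the distance to the nearest neighbour had a median of 2327 bp among the 251 regions of highest score and 4386 bp among the 252 of lowest score. In replicate 1 it was 2301 bp among the 239 highest and 4651 bp among the 239 lowest, and in replicate 2 it was 2121 bp among the 240 highest and 4742 bp among the 241 lowest. The 188 regions bordering an empty stretch of at least 50 kb had a median score of 1.33 and the other 817 regions 1.64.

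Some isolated regions were strong. Among the 88 isolated regions of the combined list, the highest score was 2.42, at 3370378 to 3378260 (7883 bp), with 2.66 in replicate 1 and 2.22 in replicate 2. The next, 748622 to 753683, scored 2.32 and had 36.0 kb free before it and 74.2 kb after it. These 2 were named after their values were seen. Of the 88, 83 (94.3%) were found in both replicates, against 90.3% of all 1005.

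The arm was set beside 2L, 2R and 3R, each also without the 2 Mb at its centromeric end. With 2 lists, the two-sided exact sign-flip permutation test cannot go below p = 0.5, which it gave for each of the 9 quantities compared, so the differences are a description. The covered share was 15.3% ± 0.25 on 3L, against 15.8% ± 0.38 on the other arms together (SD, n = 2), a difference of -0.46 ± 0.13 percentage points, and of -1.09 over whole arms. By arm, 3L lay between 2R (18.4% ± 0.38) on one side and 3R (15.2% ± 0.40) and 2L (14.1% ± 0.36) on the other, and its distance from 3R was within the SD of the replicates. The median width was 3126 bp on 3L and 3090.5 bp on the other arms, a difference of 35.5 ± 17.7 bp that was 76 bp in the combined list and turned to -83.25 bp among the upper 50% of scores.

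The median gap and the share of regions in chains on 3L differed from those of the other arms by more than the SD of the difference. So did the covered share, the median width, the density (-0.64 ± 0.049 regions per Mb) and the share in empty stretches (0.79 ± 0.43 percentage points). Exceeding that SD therefore does not set a trait apart, and no test was able to pass. Density on 3L lay among the other arms, at 42.5 regions per Mb, against 38.2 on 2L, 50.0 on 2R and 42.0 on 3R (averages of the replicates). Empty stretches of at least 50 kb held 45.9% of 3L, 52.3% of 2L, 35.8% of 2R and 46.2% of 3R. The median gap was 7202.5 bp in replicate 1 and 7147.5 bp in replicate 2 on 3L, against 6634.5 and 6663 bp on the other arms together, a difference of 526 ± 59.0 bp (SD, n = 2). It was 975.5 bp after merging regions less than 500 bp apart and 1779 bp among the upper 50% of scores. Each of the 3 other arms taken alone had a median gap below that of 3L, at 6684 bp on 2L, 6639 bp on 2R and 6662 bp on 3R. The share of regions in chains was 11.1% and 12.0% in the replicates on 3L. On the other arms together it was 16.5% and 16.1%, a difference of -4.77 ± 0.84 percentage points. By arm it averaged 16.6% on 2L, 15.1% on 2R and 17.1% on 3R, and 2R came nearest to 3L, with 15.9% and 14.4%. The pooled difference from the other arms is therefore larger than the distance from 2R. The pooled difference was -2.21 in the combined list, -2.75 after merging and -0.54 with gaps of at most 10 kb. With gaps of at most 2 kb it was 0.19 and among the upper 50% of scores 0.10. The isolated regions of 3L had higher median scores than those of the other arms in both replicates. They scored 1.42 in replicate 1 on 3L, against 1.21 on 2L, 1.20 on 2R and 1.21 on 3R. In replicate 2 they scored 1.21 on 3L, against 1.10 on 2L, 1.02 on 2R and 1.05 on 3R. The longest empty stretch of 3L was 221.8 kb in replicate 1 (the one after 9969008) and, at another place, 221.3 kb in replicate 2 (the one after 18394014), shorter than those of 2L (393.8 and 394.0 kb), 2R (278.1 and 278.2 kb) and 3R (273.8 and 274.5 kb).

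The limit at 22543557 fell in a sparse place and divided no region. The last regions inside it, 22461897 to 22463003 and 22464563 to 22466355, scored 0.31 and 0.30 and were found in neither replicate. The first regions beyond it, 22659270 to 22662272 and 22708585 to 22712467, scored 0.67 and 2.50 and were found in both.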

How the data were processed

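The data were 3 lists of regions of significant enrichment in GFF version 3, on FlyBase release 5 per the file headers. The authors deposited 1 list per ChIP replicate and 1 for the replicate set. Each region has a start, an end and a score deposited by the authors, positive and on an unstated scale. The aligner, the caller, its threshold, the use of the inputs, the read depth and how the replicates were combined are not stated in the labels or headers. Combined values are the authors' and carry no SD.

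The members and lists were chosen with earlier results of these data known. Regions with sequence name 3L (a leading chr removed) ending at or before 22543557, the arm length in the headers less 2 Mb, were kept. Gaps are the bases between neighbours, and windows were 500 kb. Regions named individually are the 10 widest, the 10 highest-scoring, the 10 longest empty stretches, the 5 chains with most regions, the 3 densest and 3 emptiest windows, the 5 most discordant matched pairs and the 5 strongest regions found in neither replicate. Others were named after their values were seen. Counting of overlaps, gaps and chains was tested on simulated data. Alternatives were stricter scores, merging of close regions, other limits and each replicate alone. The only gene table was that of release 6, so no genes were assigned and no sequence was read. Python 3.11.15, numpy 2.4.6, pandas 2.3.3, scipy 1.17.1 and matplotlib 3.10.9 were used.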

Additional observations from a re-analysis of the deposited data

How the results depend on the processing

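No paired analysis was possible because the inputs that share replicate numbers with the ChIP libraries have no values of their own. Restricting the combined list to the upper 50% of scores left 504 regions covering 10.2% of 3L, with a median width of 3910 bp, a median gap of 12948 bp, a median score of 2.11, 7 chains and a share of 100% found in both replicates. Merging regions less than 500 bp apart moved the median width to 3391 bp and the median gap to 8422.5 bp. The whole arm was covered to 15.6%. Empty stretches of at least 100 kb numbered 36, and chains with gaps of at most 2 kb numbered 5. Among regions at least 1305 bp wide the share found in both replicates was 93.2%. Either replicate list alone gave a covered share of 15.1% to 15.5%, a median width of 3072 to 3180 bp, a median gap of 7147.5 to 7202.5 bp and a median score of 1.56 to 1.85. Of the combined regions, 92.7% had a partner in replicate 1 and 92.9% in replicate 2, whether or not the other replicate also had one. The difference from the other arms reversed for median width (-83.25 bp among the upper 50% of scores) and for the share of regions in chains (0.19 percentage points with gaps of at most 2 kb and 0.10 among the upper 50% of scores); the cause was not tested. Of 64 values under alternatives, 21 moved and 3 reversed; the other 40 were counts within 1.5 times, values within the spread, or differences that kept their sign, some of which changed much in size. The difference from the other arms was -1.09 percentage points of coverage over whole arms and -0.54 percentage points in chains with gaps of at most 10 kb. In median gap it was 975.5 bp after merging and 1779 bp among the upper 50% of scores. The score difference of isolated regions was -0.07 among the upper 50% of scores, with isolation defined anew on the shortened lists. The alternatives for isolation, chain share and gap between arms, for the minimum width and for recurrence in each replicate taken by itself were chosen after seeing the data. The unknown depth and alignable share limit what an empty stretch can show.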
